A study of Mus musculus with 28 samples.

Results

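The apolipoprotein genes expressed in the liver were followed in leptin-deficient mice with nonalcoholic steatohepatitis (NASH). The genes were chosen by name, *Apoa1*, *Apoa2*, *Apoa4*, *Apoa5*, *Apob*, *Apoc1*, *Apoc2*, *Apoc3*, *Apoe*, and *Apom*, and each was matched to its Ensembl identifier in a count table of messenger RNA. All 10 were found among the 21935 genes of the table. The rule names genes and uses no measured value, but it was set with earlier results of these data known. The mice were male B6.V-Lepob/JRj animals, 5 weeks old when obtained, which lack leptin and become obese. Every group, the vehicle group included, received the AMLN diet, a feed with much fat, cholesterol, and fructose, for 14 weeks before treatment and throughout it. Treatment was oral, once daily, for 2 weeks, with vehicle in 10 mice, with obeticholic acid (OCA) at 30 mg/kg in 9 mice, and with INT-787 at the same dose in 9 mice. OCA and INT-787 are modified bile acids that activate the farnesoid X receptor (FXR), a nuclear receptor for bile acids, and INT-787 is a derivative of OCA that carries an added hydroxyl group. Mice without leptin deficiency or on another diet were not analysed here, so levels can be compared between treatments only.

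Apolipoproteins are the protein coat of the particles that carry lipid in blood. Apolipoprotein B is the backbone that stays with each very-low-density lipoprotein (VLDL) particle from assembly in the hepatocyte to uptake, apolipoproteins A-I and A-II build high-density lipoprotein (HDL), and the smaller C, E, and A-V proteins exchange between particles. Apolipoprotein C-II activates lipoprotein lipase, the enzyme that clears triglyceride from circulating particles, whereas C-III restrains that clearance and A-V promotes it. The liver makes most of these proteins.

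The median total count per mouse was 14864947, the highest was 22421506, and the lowest, in vehicle replicate 6, was 1009593. Libraries were made with a stranded kit, and vehicle replicate 5 stood apart in its strand. Over 8 genes that lie mostly opposite an expressed gene, it held 1027 CPM (counts scaled to the library total), whereas the other 27 mice held 2.97 to 14.5 CPM. The CPM of single genes and of marker sums were scaled otherwise, to the total of the tested genes times a TMM normalization factor. That factor ran from 0.877 in INT-787 replicate 6 to 1.21 in vehicle replicate 1. The labelled tissue was checked with hepatocyte markers, and albumin (*Alb*) had a median of 94658 CPM and was lowest at 48545 CPM. The results for *Apoa5*, *Apoa2*, and *Apoc3* and the count of correlated pairs are therefore given also without vehicle replicates 5 and 6.

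The 10 genes together took between 6.63% and 10.2% of all counts in a mouse. To compare genes with each other, CPM were divided by the exon length in kilobases (CPM per kb), and vehicle means are given with their SD (n = 10). *Apoa2*, whose product is the second main protein of HDL, was at 17831 ± 6627 CPM per kb, rank 2 of 12576 genes. *Apoe*, the ligand through which remnant particles are taken up, was at 16659 ± 4090.0 CPM per kb, rank 3. The difference between this pair was smaller than their SD. *Apoa1*, the main HDL protein and activator of cholesterol esterification, followed at 7037 ± 2059 CPM per kb, *Apoa4*, an exchangeable apolipoprotein linked to triglyceride secretion, at 6519 ± 2143, and *Apoc1*, an exchangeable protein of HDL and VLDL, at 5222 ± 1857. Neighbours among these 3 differed by less than their SD. *Apoc3* was at 1729 ± 915 CPM per kb, *Apob* at 675 ± 204, and *Apoa5* at 426 ± 119, and each of these steps was larger than the SD. *Apom*, a minor HDL protein that carries sphingosine-1-phosphate, was far below at 48.3 ± 6.48 CPM per kb, rank 859.

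*Apoc2* was the exception. It had 0 counts in 12 of 28 mice and at most 7 counts in any mouse, 32 counts in all. The vehicle, OCA, and INT-787 mice reached at most 0.212, 0.0924, and 0.399 CPM, and the 3 ranges overlapped from 0 upward. Of its 813 exon bases, 646 are shared with the same-strand gene *Gm44805*, which had 0 counts in every mouse, and a count that leaves out reads shared by overlapping genes would leave 167 bases for *Apoc2*. How such reads were counted is not given in the sources used here. The *Apoc2* level is therefore uncertain, and the gene was removed by the filter on low counts, which left 9 members to test. Without that filter the log2 fold changes were 0.71 (95% interval -0.69 to 2.10) with INT-787 and -1.17 (-2.80 to 0.46) with OCA compared with vehicle, and 1.88 (0.33 to 3.42) between the drugs, where the adjusted p of edgeR was 0.193.

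The genes lie in the mouse genome (GRCm38) partly in clusters. *Apoa1*, *Apoc3*, *Apoa4*, and *Apoa5* lie in this order within 43.3 kb of chromosome 9 (chr9:46228580-46271919), with *Apoc3* on the minus strand and the others on the plus strand. *Apoc2*, *Apoc1*, and *Apoe* lie within 27.6 kb of chromosome 7 (chr7:19671579-19699188), all on the minus strand. *Apoa5* itself (ENSMUSG00000032079) spans chr9:46268633-46271919. *Apoa2* lies at chr1:171225054-171226379 on the plus strand, *Apob* at chr12:7977648-8016835 on the plus strand, and *Apom* at chr17:35128997-35132050 on the minus strand. The promoters of *Apoa5*, the member that changed, and of 2 cluster neighbours are shown for comparison, each as 250 bases before and 50 bases after a RefSeq transcription start on the plus strand (GRCm38.p6).
Apoa5, chr9:46268358-46268657: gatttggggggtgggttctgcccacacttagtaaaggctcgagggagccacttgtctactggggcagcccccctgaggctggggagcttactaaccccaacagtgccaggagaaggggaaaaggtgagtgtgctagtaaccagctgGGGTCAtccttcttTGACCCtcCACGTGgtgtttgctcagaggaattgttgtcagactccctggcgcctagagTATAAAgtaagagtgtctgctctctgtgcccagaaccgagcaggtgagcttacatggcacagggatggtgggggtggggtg
Apoa4, chr9:46240594-46240893: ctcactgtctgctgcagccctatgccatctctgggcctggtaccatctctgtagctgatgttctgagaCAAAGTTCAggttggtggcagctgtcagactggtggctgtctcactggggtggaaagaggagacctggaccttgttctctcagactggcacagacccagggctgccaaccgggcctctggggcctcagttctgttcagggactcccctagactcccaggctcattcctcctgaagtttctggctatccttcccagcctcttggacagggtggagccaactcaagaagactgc
Apoa1, chr9:46228380-46228679: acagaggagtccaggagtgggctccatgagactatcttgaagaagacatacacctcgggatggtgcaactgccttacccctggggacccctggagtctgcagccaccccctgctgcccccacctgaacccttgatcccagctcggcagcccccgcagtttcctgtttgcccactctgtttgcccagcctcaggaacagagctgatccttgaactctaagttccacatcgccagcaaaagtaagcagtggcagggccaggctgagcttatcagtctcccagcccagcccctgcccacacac

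Capitals mark searched motifs, and positions are counted from 0 at the annotated start. The *Apoa5* window holds TATAAA, the core of a TATA box, at -31, CACGTG, an E-box, at -82, and GGGTCA, a nuclear receptor half-site, at -90 (where it reads TGACCC on the printed strand) and at -104. The *Apoa4* window holds CAAAGTNCA, a motif of the direct-repeat kind read by HNF4, at -182, and the *Apoa1* window holds no searched motif. Of 32851 mouse promoter windows of the same length, 8.32% hold TATAAA, which was searched on the printed strand only, 7.15% hold CACGTG, 13.7% hold GGGTCA, 16.3% hold AGGTCA, and 1.41% hold CAAAGTNCA, each searched on both strands. A consensus read by FXR, an inverted repeat of AGGTCA with a spacer of 1 base, was in 3 of the 32851 windows and in none of the 12 member windows. Only this exact string was searched. Inverted repeats with other spacers or letters were not searched, and the GGGTCA half-sites of the *Apoa5* window face each other with a longer spacer. In all, 8 of 10 members had a promoter entry, and *Apoc1* and *Apoc3* had none. A second *Apoa5* entry overlaps the printed one and holds the same motifs. These matches describe the letters only.

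The comparison of each drug with vehicle asked which apolipoprotein genes a treatment of 2 weeks changed. *Apoa5* rose with INT-787, and no other member passed the threshold in any comparison. Genes were tested with edgeR, and a gene counted as changed at a Benjamini-Hochberg adjusted p of at most 0.05 over 12580 tested genes. With INT-787, 1 of 9 tested members was higher and 0 were lower compared with vehicle, at a background of 19.6% of all tested genes called in either direction, 10.2% higher and 9.48% lower. The count of members was thus no larger than the background share would give.

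**Figure D1:**
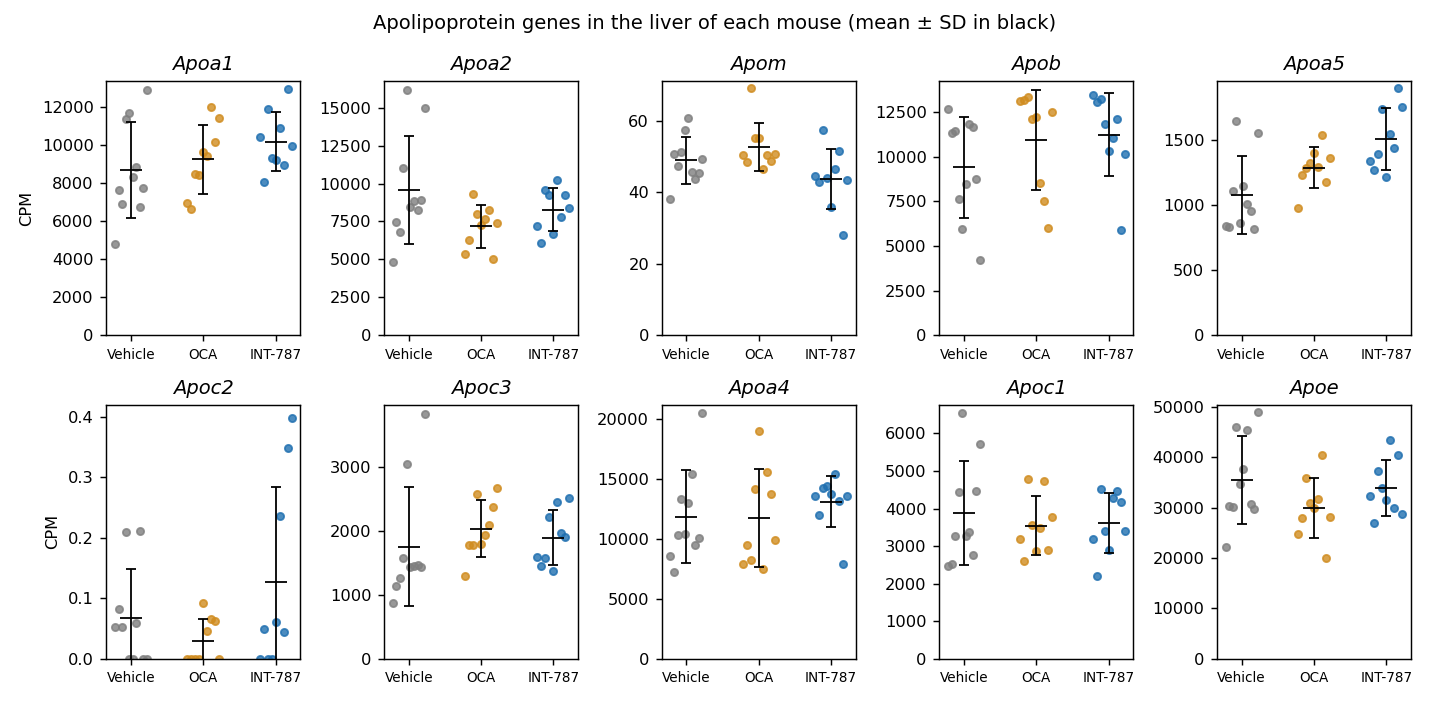
Level of each of the 10 genes, in CPM on a linear axis from 0, for 10 vehicle, 9 OCA, and 9 INT-787 mice (points), with the mean and SD in black. For *Apoa5* the INT-787 mean is the highest, with mice between 1219 and 1897 CPM that overlap the vehicle mice, vehicle mice spread widest for 7 of 9 tested genes, and *Apoc2* stays under 0.4 CPM.

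In *Apoa5*, vehicle mice ranged from 812 to 1642 CPM with a median of 980 CPM. OCA mice ranged from 977 to 1539.5 CPM with a median of 1289.7 CPM, and INT-787 mice from 1219 to 1897 CPM with a median of 1437 CPM. All 9 INT-787 mice lay above the vehicle median and 3 lay above the highest vehicle mouse, but the ranges overlapped because vehicle replicates 4 and 10 reached 1642 and 1555 CPM. The means were 1075 ± 299 CPM (SD, n = 10) with vehicle, 1286 ± 156 CPM (n = 9) with OCA, and 1510.1 ± 238 CPM (n = 9) with INT-787. INT-787 raised *Apoa5* 1.40-fold compared with vehicle, a log2 fold change of 0.49 (SE 0.13, 95% interval 0.23 to 0.75, edgeR adjusted p = 0.00556). Among the tested genes, 8.53% had a smaller p, and *Apoa5* ranked 2072 by absolute log2 fold change. The call was kept under all 14 other fits and without any single mouse, with log2 fold changes of 0.41 to 0.58. It was not kept when the log2 fold change also had to reach 0.5 in size. With DESeq2 the adjusted p was 0.00141, and without vehicle replicates 5 and 6 it was 0.0157 (edgeR). In the *Apoa5* exons, 524 of 2522 bases lie opposite *Gm47544*, a gene outside the count table. The libraries were stranded, but whether strand was used in counting is not given in the sources used here. Counts that ignored strand would not differ with the strand of a library. Over the genes that lie mostly opposite an expressed gene, vehicle replicate 5 held 1027 CPM and the other mice at most 14.5 CPM.

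Hepatocyte markers moved in the same comparisons, and their part in the *Apoa5* result was not tested. The summed level of 13 hepatocyte markers was 74197 to 148687 CPM in vehicle mice, 125049 to 215824 CPM in OCA mice, and 109133 to 186697 CPM in INT-787 mice, and 0 of these genes were at 0. With INT-787, 7 of 13 tested hepatocyte markers were higher and 1 was lower, and with OCA 8 were higher and 0 were lower, at backgrounds of 19.6% and 6.6% of all tested genes called. Among the OCA calls, that of *Fgb* was lost under 20 of 42 alternatives and those of *Fga* and *Tat* under 4 each. In whole liver RNA, fewer cells of a type and less RNA per cell cannot be told apart. The genes most like *Apoa5* over the 28 mice, of 12571 compared by Pearson r of log2 CPM, were *Gckr*, the regulator of glucokinase, at 0.87, *Asl*, an enzyme of the urea cycle, at 0.87, and *Acy1*, an aminoacylase, at 0.87. After removal of the group means these values were 0.77, 0.77, and 0.77. The mice share their libraries between such genes, so the values are descriptions.

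With OCA, 0 of 9 members passed the threshold in edgeR compared with vehicle, at a background of 6.6% of all tested genes, 4.15% higher and 2.45% lower, and 2 of 9 had an unadjusted p under 0.05, at a background of 18.5%. DESeq2 and limma-voom also called 0. These 2 genes were *Apoa2* and *Apoa5*. The log2 fold change of *Apoa5* with OCA was 0.26 (SE 0.13, 95% interval 0.00 to 0.52, adjusted p = 0.263), and 8 of 9 OCA mice lay above the vehicle median. This value passed the threshold under 1 of 42 alternatives (0.36, adjusted p = 0.0451).

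**Figure D2:**
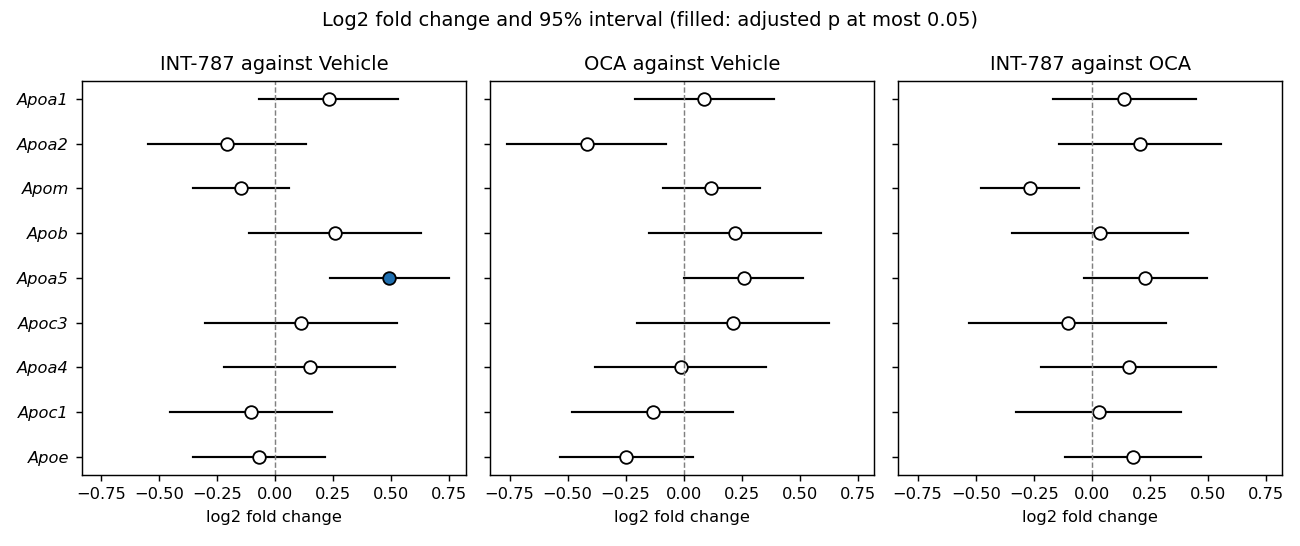
Log2 fold change (points) with its 95% interval (lines) for the 9 tested members in the 3 comparisons, with a dashed line at no change. The filled point, *Apoa5* with INT-787 at 0.49, is the call at an adjusted p of at most 0.05, and the interval also lies to 1 side of 0 for *Apoa2* and *Apoa5* with OCA and for *Apom* between the drugs.

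Among the genes of HDL structure, *Apoa2* had the lowest value with OCA. Vehicle mice ranged from 4798 to 16196 CPM with a median of 8660.3 CPM, OCA mice from 5048 to 9304 CPM with a median of 7368 CPM, and INT-787 mice from 6093 to 10268 CPM with a median of 8373 CPM. Only 1 of 9 OCA mice lay above the vehicle median, and the vehicle range held every treated mouse. The log2 fold change was -0.42 (SE 0.17, 95% interval -0.76 to -0.08, edgeR adjusted p = 0.152) with OCA and -0.21 (-0.55 to 0.13, adjusted p = 0.418) with INT-787. The value with OCA passed the threshold when library totals alone set the scale (-0.49, adjusted p = 0.0191) and without vehicle replicate 1 (-0.50, adjusted p = 0.0496). Without vehicle replicates 5 and 6 the values were -0.31 (adjusted p = 0.334) with OCA and -0.10 (adjusted p = 0.738) with INT-787, and without replicate 5 alone the *Apoa2* values were -0.30 and -0.09.

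*Apoa1* ranged from 4805 to 12902 CPM in vehicle mice, from 6656 to 11994 CPM in OCA mice, and from 8059 to 12972 CPM in INT-787 mice. All 9 INT-787 mice lay above the vehicle median of 8023 CPM, and the ranges overlapped. The log2 fold change was 0.23 (SE 0.15, 95% interval -0.07 to 0.53, edgeR adjusted p = 0.295) with INT-787 and 0.09 (-0.21 to 0.39, adjusted p = 0.834) with OCA. The *Apoa1* value with OCA was 0.02 without vehicle replicate 1 and 0.15 without vehicle replicate 10. *Apom* ranged from 38.2 to 60.7 CPM in vehicle mice, from 46.4 to 69.0 CPM in OCA mice, and from 27.9 to 57.4 CPM in INT-787 mice. Here 8 of 9 OCA mice lay above the vehicle median and 2 of 9 INT-787 mice did, and the log2 fold changes were 0.12 (SE 0.10, adjusted p = 0.602) and -0.15 (SE 0.10, adjusted p = 0.339). The *Apom* values were 0.06 with OCA without OCA replicate 3 and -0.08 with INT-787 without INT-787 replicate 8.

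*Apob*, the structural gene of VLDL, ranged from 4230 to 12679 CPM in vehicle mice with a median of 10032 CPM. OCA mice ranged from 5994 to 13369 CPM with a median of 12208 CPM, and INT-787 mice from 5895 to 13439 CPM with a median of 11828 CPM. In each drug group 3 mice lay above every vehicle mouse, and low mice occurred in all 3 groups. The log2 fold change was 0.26 (SE 0.18, 95% interval -0.11 to 0.63, edgeR adjusted p = 0.350) with INT-787 and 0.22 (-0.15 to 0.59, adjusted p = 0.584) with OCA. Without vehicle replicate 10, the lowest vehicle mouse, the *Apob* value with OCA was 0.12.

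*Apoc3*, the gene that opposes *Apoa5* in lipase control and lies in the same cluster, ranged from 874 to 3827 CPM in vehicle mice with a median of 1449 CPM. Vehicle replicates 5 and 10, at 3045 and 3827 CPM, lay above all treated mice, and the other vehicle mice lay at or below 1586 CPM. OCA mice ranged from 1297 to 2678 CPM with a median of 1931 CPM, and INT-787 mice from 1372 to 2514 CPM with a median of 1914 CPM. The log2 fold change was 0.21 (SE 0.20, 95% interval -0.20 to 0.63, edgeR adjusted p = 0.649) with OCA and 0.11 (-0.30 to 0.53, adjusted p = 0.760) with INT-787. Without vehicle replicates 5 and 6 these values of *Apoc3* were 0.32 (adjusted p = 0.460) and 0.22 (adjusted p = 0.519), without vehicle replicate 10 they were 0.40 and 0.31, without replicate 5 they were 0.34 and 0.23, and without replicate 1 they were 0.14 and 0.03.

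The remaining exchangeable genes, *Apoa4*, *Apoc1*, and *Apoe*, gave log2 fold changes with INT-787 of 0.15 (SE 0.18), -0.10 (SE 0.17), and -0.07 (SE 0.14), with edgeR adjusted p of 0.623 to 0.778. With OCA these values were -0.01 (SE 0.18), -0.13 (SE 0.17), and -0.25 (SE 0.14), with adjusted p of 0.364 to 0.989. *Apoa4* was narrowest with INT-787, where 8 of 9 mice lay above the vehicle median of 10369 CPM. The range of *Apoe* was 22197 to 49031 CPM with vehicle, 20008 to 40505 CPM with OCA, and 27065 to 43501 CPM with INT-787, and 2 of 9 OCA mice and 4 of 9 INT-787 mice lay above the vehicle median. In *Apoa4*, 1266 of 1815 exon bases lie opposite *Gm47528* and *Gm10680*, genes outside the count table. Leaving out single mice moved the values of *Apoa4*, *Apoc1*, and *Apoe* to between -0.16 and 0.27 with INT-787 and between -0.31 and 0.09 with OCA. No value of these 3 genes went past the threshold under any of the 42 alternatives.

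INT-787 and OCA, given at the same dose for the same time, were compared directly as 1 pair of compounds. Between them 0 of 9 members passed the threshold in edgeR, at a background of 5.38%, 2.19% higher and 3.19% lower with INT-787, and 1 of 9 had an unadjusted p under 0.05, at a background of 18.9%. DESeq2 and limma-voom also called 0. That gene was *Apom*, lower with INT-787 than with OCA by a log2 fold change of -0.27 (SE 0.10, 95% interval -0.48 to -0.06, edgeR adjusted p = 0.132). For *Apoa5* the difference was 0.23 (-0.03 to 0.49, adjusted p = 0.343) toward INT-787. The other intervals were -0.14 to 0.56 for *Apoa2*, -0.12 to 0.47 for *Apoe*, -0.22 to 0.54 for *Apoa4*, -0.17 to 0.45 for *Apoa1*, -0.34 to 0.42 for *Apob*, -0.33 to 0.39 for *Apoc1*, and -0.53 to 0.32 for *Apoc3*. The added hydroxyl group of INT-787 thus went with no difference past the threshold in these genes, and a p that misses the threshold does not show that the compounds act alike. *Apoa5* passed the threshold against vehicle with INT-787 and not with OCA, but the difference between the drugs did not pass it. Among mice with neighbouring sample numbers, *Apoa5* was higher with INT-787 than with OCA in 8 of 8 sets, and higher with OCA than with vehicle in 7 of 8. Other members were also higher with INT-787 than with OCA in most sets, *Apoa2* in 7 of 8 and *Apoa1* in 6. *Apoa4* and *Apoe* were higher in 5, *Apoc3* in 4, *Apob* and *Apoc1* in 3, and *Apom* in 1. With these sets as a factor in edgeR the log2 fold changes of *Apoa5* were 0.24 (adjusted p = 0.253) and 0.34 (adjusted p = 0.0883), and what the sets share is not given in the labels.

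The median log2 fold change of the 9 members compared with vehicle was 0.11 with INT-787 and 0.09 with OCA, and it was 0.14 for INT-787 against OCA, beside -0.00, 0.02, and -0.01 over all tested genes. The median absolute log2 fold change was 0.15, 0.21, and 0.16, beside 0.18, 0.13, and 0.13 over all tested genes. The number of members with a positive log2 fold change was 5, 5, and 7 under all 4 other scalings as well.

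The spread between mice was widest in the vehicle group for 7 of 9 members, in the OCA group for *Apoa4*, and in the INT-787 group for *Apom*. The SD of log2 CPM of *Apoc3* was 0.64 in vehicle mice, 0.33 in OCA mice, and 0.33 in INT-787 mice. For *Apoa2* the values were 0.52, 0.29, and 0.26. Equality of these spreads was not tested. The length slope of the libraries, defined below, also spread widest in vehicle mice (SD 0.134, beside 0.0622 with OCA and 0.0586 with INT-787). Within vehicle mice its r was -0.97 with *Apoc3* and -0.95 with *Apoa2*, and its part in these spreads was not tested.

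Members were then compared over mice after the group mean of log2 CPM was removed, which asks whether they vary together apart from treatment. Of 36 pairs, 21 passed an adjusted p of 0.05 in a permutation test of mice within groups (100000 permutations, two-sided), 16 positive and 5 negative. *Apoa2* and *Apoc1* had the highest value, Pearson r = 0.85 and Spearman rho = 0.85, each with permutation p = 1e-05, the smallest these permutations can give, and adjusted p = 0.00018. Without the 2 mice farthest from the median, r was 0.80, and within vehicle, OCA, and INT-787 mice it was 0.91, 0.74, and 0.82. *Apob* went the other way. Its r was negative with 7 of 8 members, 5 of them past the threshold, whereas all 28 pairs without *Apob* were positive and 16 passed.

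The lowest value was that of *Apoa1* and *Apob*, r = -0.71 (permutation p = 9e-05, adjusted p = 0.000514) and rho = -0.66 (permutation p = 0.0007, adjusted p = 0.00252). Without the 2 farthest mice r was -0.63, and within vehicle, OCA, and INT-787 mice it was -0.85, -0.57, and -0.55. The cluster neighbours *Apoa1* and *Apoc3* had r = 0.72 and rho = 0.65 (permutation p = 0.0001 and 0.00035, adjusted p = 0.000514 and 0.0018), 0.56 without the 2 farthest mice, and 0.86, 0.64, and 0.21 within vehicle, OCA, and INT-787 mice. Without vehicle replicates 5 and 6, 20 pairs passed.

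These correlations moved with a property of the libraries. In each library the deviation of log2 CPM from a gene's mean was regressed on log2 exon length over 9345 genes that are not members, which gives a length slope that is positive where long transcripts are favoured. The slopes ran from -0.280 in vehicle replicate 10 to 0.195 in vehicle replicate 1, from -0.111 to 0.108 in OCA mice, and from -0.104 to 0.0811 in INT-787 mice. *Apob* has the longest transcript of the members, with 13934 exon bases, whereas the others have 537 to 2522. The level of *Apob* rose with the slope, with r = 0.85 and rho = 0.83 (permutation p = 1e-05, the smallest these permutations can give, adjusted p = 3e-05 and 4.5e-05 over 9 members). Without the 2 farthest mice r was 0.80, and within vehicle, OCA, and INT-787 mice it was 0.96, 0.74, and 0.76.

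Most of the shorter members went the other way. *Apoc3* had r = -0.87 and rho = -0.84 (permutation p = 1e-05, adjusted p = 3e-05 and 4.5e-05), -0.76 without the 2 farthest mice and -0.97, -0.62, and -0.67 within vehicle, OCA, and INT-787 mice. The r of *Apoa1*, *Apoa2*, *Apoc1*, *Apoa5*, and *Apoe* was -0.84, -0.82, -0.77, -0.63, and -0.63, all past an adjusted p of 0.05, and it stayed at -0.43 or below without the 2 farthest mice. *Apoa4* had r = -0.44 (permutation p = 0.0273, adjusted p = 0.0308) and rho = -0.41 (permutation p = 0.0363, adjusted p = 0.0408). Its r was -0.19 without the 2 farthest mice, and -0.74, -0.42, and 0.49 within vehicle, OCA, and INT-787 mice, so the size of the pooled r rests in part on those 2 mice. *Apom*, with 1013 exon bases beside 1014 for *Apoc3*, had r = -0.13 (permutation p = 0.50, adjusted p = 0.50). Its r was 0.02 without the 2 farthest mice, and -0.53, 0.06, and 0.37 within vehicle, OCA, and INT-787 mice. A similar exon length thus did not go with a similar r. What gives the libraries their slope was not tested.

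**Figure D3:**
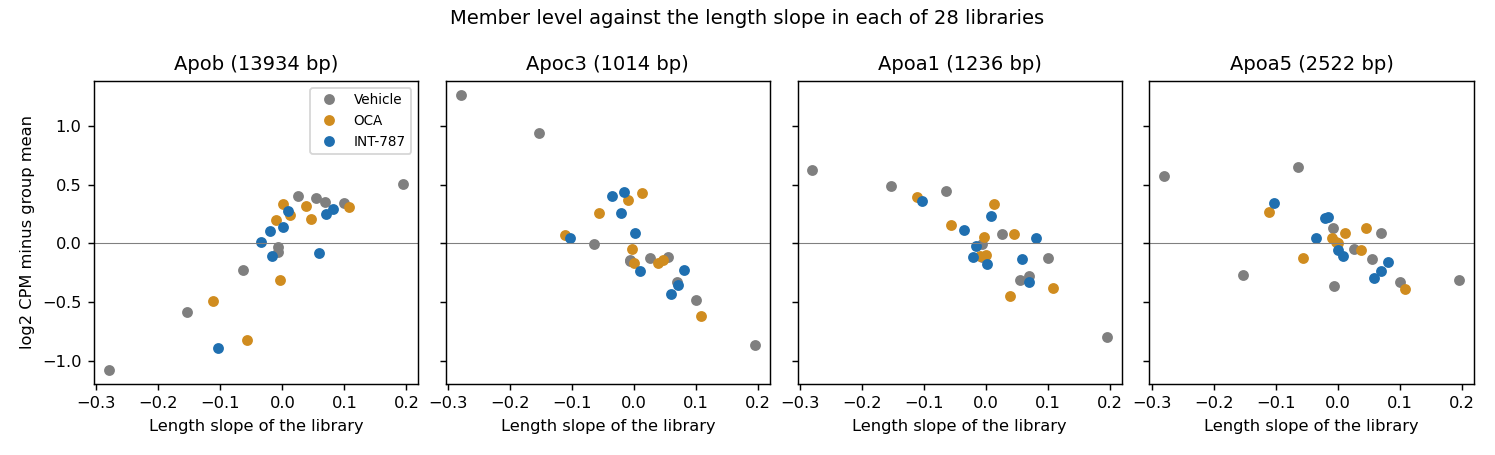
Deviation of log2 CPM from the group mean (vertical axis) against the length slope of the library (horizontal axis) for 4 members with their exon length in bases, 1 point per mouse. *Apob* rises with the slope (r = 0.85), *Apoc3* and *Apoa1* fall (r = -0.87 and -0.84), and *Apoa5* falls less closely (r = -0.63).

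With the length slope removed as well, a choice made after the data were seen, 4 of 36 pairs passed, all positive. They were *Apoa2* with *Apob* (r = 0.69, adjusted p = 0.00648), *Apom* with *Apob* (r = 0.63, adjusted p = 0.00648), *Apoa2* with *Apoc1* (r = 0.60, adjusted p = 0.0184), and *Apoa2* with *Apom* (r = 0.52, adjusted p = 0.0254). The rho of these pairs was 0.59, 0.50, 0.49, and 0.58, and only the pairs of *Apoa2* with *Apob* and with *Apom* passed by rho (adjusted p = 0.0329 and 0.0329). Without the 2 farthest mice r was 0.49, 0.49, 0.40, and 0.51. Within vehicle, OCA, and INT-787 mice it was 0.41, 0.80, and 0.72 for *Apoa2* with *Apob*, 0.07, 0.64, and 0.92 for *Apom* with *Apob*, 0.38, 0.71, and 0.65 for *Apoa2* with *Apoc1*, and 0.45, 0.64, and 0.64 for *Apoa2* with *Apom*. The relation of *Apom* with *Apob* was thus near 0 in vehicle mice. The r of *Apoa2* and *Apob* thus changed from -0.49 to 0.69, and that of *Apoa1* and *Apob* from -0.71 to -0.01.

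**Figure D4:**
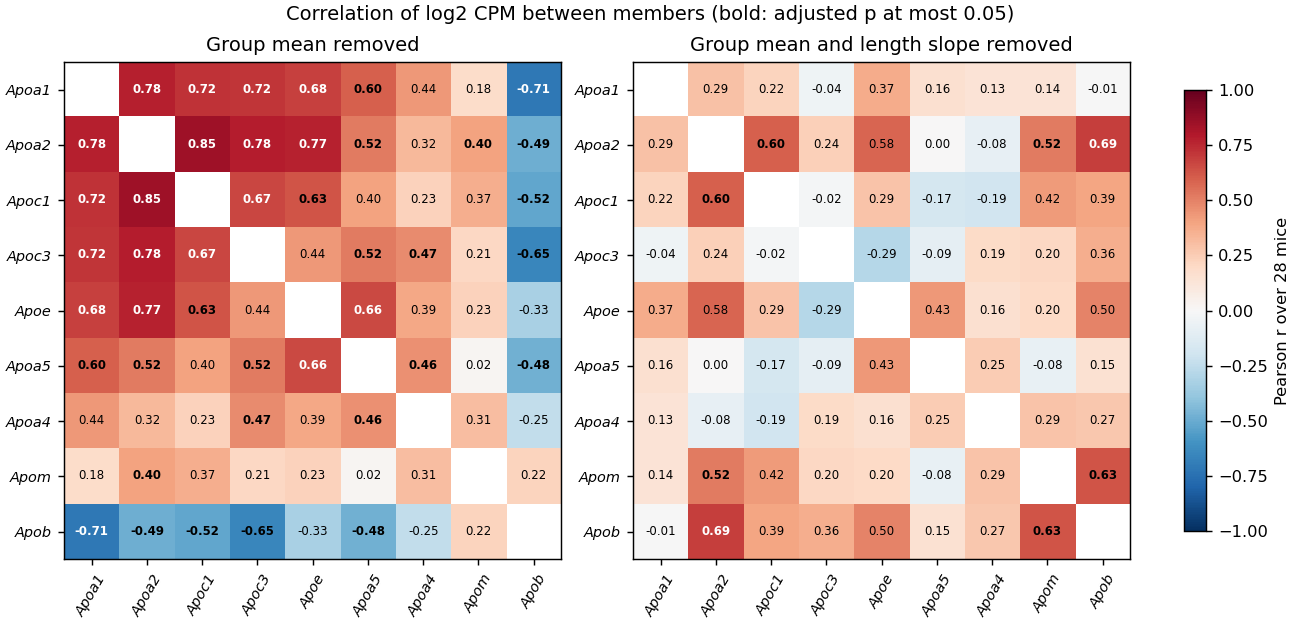
Pearson r between pairs of the 9 tested members over 28 mice, from -1 (blue) to 1 (red), after removal of the group mean (left) and of the group mean and the length slope (right), with bold type at an adjusted p of at most 0.05. *Apob* is blue on the left except against *Apom* and loses its negative values on the right apart from -0.01 with *Apoa1*, and the number of pairs past the threshold falls from 21 to 4.

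With the length slope as a covariate in edgeR, added after the data were seen, the *Apoa5* value with INT-787 was 0.52 (SE 0.10, 95% interval 0.32 to 0.72, adjusted p = 0.000239). *Apoa1* passed the threshold with INT-787 (0.31, SE 0.09, adjusted p = 0.0163), and *Apoc3* passed it with OCA (0.38, SE 0.11, adjusted p = 0.0185). In that fit 24.4% of all genes were called for INT-787 against vehicle, 9.31% for OCA against vehicle, and 8.02% for the pair of drugs, so the members' counts of 2, 1, and 0 of 9 were near or below the background. *Apoa2* with OCA was at -0.31 (adjusted p = 0.0582).

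Genes that act on the same particles were described from lists of the pathway. Their counts stand beside the background of 19.6% of all tested genes called with INT-787 (10.2% higher and 9.48% lower) and 6.6% with OCA (4.15% higher and 2.45% lower). Between the drugs the background was 5.38% (2.19% higher and 3.19% lower). Of 18 tested genes of HDL maturation and remodelling, 3 were higher and 4 lower with INT-787, and 2 were higher and 1 lower with OCA. *Scarb1*, the HDL receptor that takes up cholesteryl ester, rose from 158 CPM with vehicle to 336 CPM with OCA and 374 CPM with INT-787, by log2 fold changes of 1.09 (edgeR adjusted p = 1.64e-10) and 1.25 (adjusted p = 1.95e-12). *Lcat*, the enzyme that esterifies cholesterol on HDL with apolipoprotein A-I as its activator, rose with both drugs by 0.48 and 0.69, and *Lipc*, hepatic lipase, rose with INT-787 by 0.70. *Pdzk1*, an adaptor of the *Scarb1* product, fell with INT-787 (-0.53) and with OCA (-0.36). *Pltp*, a phospholipid transfer protein, and *Pcolce*, an enhancer of procollagen processing, fell with INT-787, with log2 fold changes of -0.48 and -0.83. *Pcolce* also differed between the drugs (-0.72, edgeR adjusted p = 0.00774).

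Of 30 tested genes of apoB lipoprotein assembly and secretion, 3 were higher and 2 lower with each drug, whereas *Apob* itself passed in neither comparison. *Soat2*, which makes cholesteryl ester for the particle core, rose by 0.95 with INT-787 and 0.54 with OCA, and it was the 1 gene of the 30 that passed between the drugs (0.41, edgeR adjusted p = 0.0203). *Tm6sf2*, needed to load lipid onto VLDL, rose by 0.71 with INT-787 and by 0.41 with OCA, and *P4hb*, a subunit of the microsomal triglyceride transfer complex, rose by 0.31 and 0.32. *Cidec*, a lipid droplet protein, and *Tmed5*, a cargo adaptor of the secretory route, fell with both, with log2 fold changes of -0.81 and -0.48 with INT-787 and -0.82 and -0.47 with OCA. The OCA calls of *Tm6sf2*, *Tmed5*, and *P4hb* were lost under 22, 9, and 4 of 42 alternatives.

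Of 10 genes of lipoprotein lipase control, 2 were higher and 1 lower with each drug. *Lpl*, lipoprotein lipase itself, was at 282 CPM with vehicle, 271 CPM with OCA, and 169 CPM with INT-787, a log2 fold change with INT-787 of -0.74 (edgeR adjusted p = 0.00974), and it differed between the drugs by -0.68 (adjusted p = 0.0499), a call lost under 27 of 42 alternatives. *Furin*, a protease that cleaves the lipase, rose with INT-787 by 0.38, and *Sel1l*, needed for export of the lipase, rose with INT-787 by 0.29 and with OCA by 0.29. *Angptl8*, an inhibitor of the lipase, rose with OCA by 0.85, and *Gpihbp1*, the anchor of the lipase on endothelium, fell with OCA, with a log2 fold change of -0.43. The OCA calls of *Sel1l*, *Angptl8*, and *Gpihbp1* were lost under 16, 12, and 18 of 42 alternatives, and the INT-787 calls of *Furin* and *Sel1l* under 4 and 1.

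Of 12 tested lipoprotein receptor genes, 3 were higher and 1 lower with INT-787, and 0 were higher and 2 lower with OCA. *Vldlr*, a receptor for triglyceride-rich particles, fell with INT-787 (-0.92) and with OCA (-1.06). *Lsr*, a remnant receptor, and *Sdc1*, the heparan sulfate receptor for remnants, rose with INT-787 by 0.28 and 0.33, and *Cd36*, a fatty acid and lipoprotein receptor, fell with OCA, with a log2 fold change of -0.46. The calls of *Lsr* and *Sdc1* were lost under 7 and 4 of 42 alternatives.

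Of 37 tested regulators of apolipoprotein genes, 9 were higher and 2 lower with INT-787, and 6 were higher and 0 lower with OCA. *Nr0b2*, which encodes the FXR target and repressor SHP, rose from 21.2 CPM with vehicle to 47.6 CPM with OCA and 64.99 CPM with INT-787, by log2 fold changes of 1.17 (edgeR adjusted p = 0.000104) and 1.62 (adjusted p = 2.03e-07). *Foxo3*, a forkhead factor, rose by 0.79 with INT-787 and by 0.50 with OCA. *Foxa1*, a liver pioneer factor, fell with INT-787 (-0.39), *Nr2f2*, an orphan receptor, rose with OCA by 0.48, and *Nr5a2*, LRH-1, rose with INT-787 by 0.28 and with OCA by 0.28, where the call was lost under 30 of 42 alternatives. The call of *Nr5a2* with INT-787 was lost under 2, and those of *Foxo3* and *Nr2f2* with OCA under 1 each. Between the drugs 0 of 37 passed in edgeR, at a background of 5.38%, and DESeq2 and limma-voom also called 0. An unadjusted p under 0.05 was reached by 7 of 37, at a background of 18.9% of all tested genes.

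Of 12 tested genes of a list of other apolipoproteins, which also holds *Apobr*, a receptor for apolipoprotein B, 3 were higher with INT-787, 2 were higher with OCA, and 0 were lower with either. *Apol7a*, *Apol9a*, and *Apol9b*, members of the apolipoprotein L family, rose with INT-787 by log2 fold changes of 1.37, 1.33, and 1.23, and *Apol7a* rose with OCA by 0.99. Without INT-787 replicate 8 the values of *Apol9a* and *Apol9b* were 0.61 and 0.71 and both calls held (edgeR adjusted p = 0.0132 and 0.00246). Genes of this family are similar in sequence, so the split of reads among them is uncertain. *Apof*, an inhibitor of lipid transfer between particles, rose with OCA by 0.40 and had a value of 0.28 with INT-787 (edgeR adjusted p = 0.0859). Its call with OCA was lost under 11 of 42 alternatives.

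Marker genes of other liver cells moved in the same comparisons, and their part in the values of the members and of these lists was not tested. The backgrounds were 9.48% lower with INT-787, and 4.15% higher and 2.45% lower with OCA. Between the drugs they were 2.19% higher and 3.19% lower. For an unadjusted p under 0.05 with OCA the background was 18.5%. Of 20 macrophage markers, 11 were lower with INT-787 and 0 with OCA, where 2 had an unadjusted p under 0.05 in edgeR and DESeq2 and limma-voom also called 0. Their summed level was 1408 to 1777 CPM with vehicle, 1068 to 2181 CPM with OCA, and 848 to 1529.9 CPM with INT-787, and between the drugs 8 were lower and 1, *Marco*, was higher with INT-787, a call lost under 14 of 41 alternatives. Of 10 stellate cell and fibroblast markers, 6 were lower with INT-787, 1 (*Lum*, a call lost under 29 of 42 alternatives) was higher with OCA, and 5 were lower when INT-787 was compared with OCA. Their sums were 1432 to 2651 CPM with vehicle, 1332 to 3542 CPM with OCA, and 523 to 1300.3 CPM with INT-787. *Apoe* and *Lpl* are known to be made by macrophages as well. With INT-787, 2 of 6 cholangiocyte, 2 of 7 endothelial, and 1 of 7 lymphocyte markers were lower. The endothelial calls were *Pecam1* and *Cdh5*, lost under 21 and 6 of 42 alternatives. With OCA, edgeR called 0 of these, with 2, 5, and 2 at an unadjusted p under 0.05, and DESeq2 and limma-voom each called 0, 0, and 1. The sums with vehicle, OCA, and INT-787 were 486 to 802, 444 to 1623, and 337 to 539.6 CPM for cholangiocyte markers, 175 to 359, 162 to 244, and 119 to 269 CPM for endothelial markers, and 19.3 to 31.8, 14.96 to 26.7, and 13.8 to 31.7 CPM for lymphocyte markers. In every list 0 genes were at 0 in a whole group. Each sum, that of the hepatocyte markers included, is weighted toward its most abundant genes and need not follow the other markers of its list.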

How the data were processed

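Liver messenger RNA of 28 mice was sequenced from libraries made with a stranded kit. The authors aligned reads to GRCm38 with STAR 2.5.2a (Ensembl annotation 89) and deposited raw counts per gene. The counting program and whether it used strand are not given in the sources used here. Of 21935 genes, 21858 matched a symbol and a position. Groups came from the sample labels, 1 library per mouse. The members and gene lists were chosen with earlier results of these data known.

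Counts were tested with edgeR 4.0.16 (R 4.3.3, limma 3.58.1) by the quasi-likelihood test in 1 model of 3 groups with TMM scaling, after a filter on low counts that left 12580 genes, with Benjamini-Hochberg adjustment over all of them. DESeq2 1.42.0, limma-voom, other scalings and filters, and leaving out mice were alternatives. Log2 CPM used a prior count of 2. Correlations used 36 pairs because *Apoc2* was filtered out. In each list the genes past the threshold in at least 1 comparison with a mean of at least 5 CPM were eligible to be named, at most the 3 highest and the 3 lowest by their log2 fold change with INT-787, and for *Apoa5* the 3 genes with the highest r of log2 CPM. Marker lists are given by counts and sums. Some eligible genes are not reported here. Code was tested on simulated data. Among 378 pairs of libraries the lowest chi-square per gene was 3.00, so none was counted as a duplicate. Total counts of 1009593 to 22421506 per mouse set the precision, and counts were not corrected for molecular duplicates. Promoters came from RefSeq (GRCm38.p6) and exon lengths from GENCODE (GRCm38). Python 3.11.15 with numpy 2.4.6, pandas 2.3.3, scipy 1.17.1, and matplotlib 3.10.9 was used.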

Additional observations from a re-analysis of the deposited data

Results flagged for a closer look

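Of 27 groups of mice over the 9 tested members, 3 held a mouse far from the others by Dixon's ratio at 95%, and chance gives about 1 in 20 such groups. *Apoa4* was at 7898 CPM in INT-787 replicate 8, with the nearest INT-787 mouse at 11965 CPM. *Apob* was at 5895 CPM in the same mouse, with the nearest at 10171 CPM. That mouse also had the lowest length slope of its group, -0.104, and the part of the slope in these values was not tested. *Apom* was at 69.0 CPM in OCA replicate 3, with the nearest OCA mouse at 55.2 CPM.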

How the results depend on the processing

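With INT-787 compared with vehicle, 1 member passed the threshold without any single mouse (1 to 1), 2 passed with the length slope as a covariate, and 0 passed when the log2 fold change also had to reach 0.5 in size. With OCA, 0 to 1 passed without single mice, where leaving out vehicle replicate 1 gave 1 (*Apoa2*). With OCA, 1 passed with library totals only (*Apoa2*), 1 with the length slope as a covariate (*Apoc3*), and 1 with the replicate block (*Apoa5*). Between the drugs 0 passed in every alternative run. Of 36 correlated pairs, 21 passed, 20 without vehicle replicates 5 and 6, and 4 with the length slope removed.

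The replicate number was not treated as a pairing in the main fit, and a fit with it as a block was an alternative. Of 27 same-numbered pairs, 11 had a correlation of deviations over 0.1 (-0.244 to 0.429). Their median was 0.0772, against 0.0037 for other pairs. Of 28 mice, 9 correlated best with a mouse of their own number, and the number that chance would give was not computed. Grouped by the sets of sample numbers, 13 of 25 pairs were over 0.1, with a median of 0.105 against -0.00682 for other pairs. With the replicate block, *Apoa5* with OCA had a log2 fold change of 0.36 (edgeR adjusted p = 0.0451), and the block changed no other call among the members.

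Of 1134 alternative values for single members, 1129 kept their side of the threshold and 5 passed it newly. In 23 of them the sign changed, all for values far from the threshold (*Apoa4* with OCA, *Apoc1* and *Apoe* with INT-787, and *Apob* and *Apoc1* between the drugs), and the called value of *Apoa5* kept its sign. Of 6672 values for list genes, 282 lost and 55 gained the call. Of 1584 list counts, 207 moved by over 1.5 times. Library totals shifted the median of all genes by up to -0.09 (log2), and the share of calls that were higher went from 51.7% to 32.5% with INT-787 and from 62.9% to 36.2% with OCA, or to 37.5% and 52.3% with upper-quartile scaling. Vehicle replicate 6, at 1009593 counts, limits the precision of its low genes.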
